A study of Mus musculus with 31 samples.

Results

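Expression of 10 genes of the natural killer (NK) and cytotoxic effector program was followed in thymic tumors and untreated thymi. They were named as a list: the granzymes Gzma and Gzmb, the pore-forming protein gene Prf1, the granule protein gene Nkg7, the lectin-like receptor genes Klrd1 and Klrk1, the activating receptor gene Ncr1, the cytokine receptor chain gene Il2rb, and the transcription factor genes Tbx21 and Eomes. All 10 of the 10 genes had a probe set, of 18194 genes on the array with a probe set of their own. They were read by 13 probe sets, since Prf1, Il2rb and Eomes had 2 each. The members that passed the filter on low values numbered 9, of 13645 genes tested, and Ncr1 did not pass it.

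Each of 31 samples from C57BL/6 mice was hybridised to an Affymetrix whole-genome mouse array. The groups differed in NDR1, a protein kinase encoded by Stk38, and are called KO (NDR1-/-), HT (NDR1+/-) and WT (NDR1+/+). The tumors were thymic tumors of mice given N-ethyl-N-nitrosourea (ENU, an alkylating mutagen) at 100 mg/kg, with 7 KO tumors (6 female, 1 male), 7 HT tumors (6 female, 1 male) and 5 WT tumors (all female). The thymi were untreated and labelled normal, with 4 each for KO, HT and WT (2 female and 2 male). The titles name tumor cells and thymocytes while the tissue label is thymus, and ages and the way NDR1 was disrupted are not given in the sources used here. Tumors were taken when they appeared or 9 months after ENU, so tumor state, ENU and the time since it cannot be told apart. Nothing in the labels says that the arrays came from separate animals, so the p-values measure only the spread between these samples, which may be technical. All values below are log2(intensity + 1), on which the median of every array was 4.39, and a level of one probe set is not set against the level of another.

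Cytotoxic lymphocytes, that is NK cells and activated CD8 T cells, kill a target by releasing granules onto it. Perforin opens the membrane of the target, and granzymes, which are serine proteases, enter and start cell death. Receptors such as NKG2D (encoded by Klrk1) and NKp46 (encoded by Ncr1) trigger the release, while CD94 (encoded by Klrd1) pairs with NKG2 proteins to form inhibitory or activating receptors. IL-2 and IL-15 sustain these cells through the shared receptor chain encoded by Il2rb, and the T-box factors T-bet (encoded by Tbx21) and Eomes, with RUNX proteins, switch the program on. The thymus consists mostly of immature T cells, which do not kill, and holds few mature cytotoxic cells.

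The promoters of 8 of the 10 genes were in the RefSeq promoter table used (GRCm38.p6), as a window of 300 bases that lies mostly before the start of the gene. Klrd1 and Il2rb were not in it. The core letters that RUNX proteins bind, TGTGGT or its reverse complement ACCACA, were in the promoters of 6 of the 8 genes, namely Gzma, Gzmb, Prf1, Nkg7, Klrk1 and Ncr1. Of all 32851 promoters listed, 16.8% held these letters on either strand. The T-box core GGTGTG (reverse complement CACACC) was in 1 of the 8, Nkg7, against 19.05% of all promoters. The pattern TTCNNNGAA, read by STAT proteins, was in 2 of the 8, Nkg7 and Gzmb, against 8.30% of all promoters. A match is a description of the letters and not a bound site. The promoters of Gzma and Prf1 are printed as effector genes, and those of Gzmb, Nkg7, Klrk1 and Eomes because these genes were highest in the same 4 tumors. The Eomes and Tbx21 promoters hold no RUNX core, and the Eomes one is shown beside those that do. All are given 5′ to 3′ on the strand of the gene, with the RUNX core in capitals. The windows are chr13:113100932-113101231 (minus strand) for Gzma, chr14:56262285-56262584 (minus) for Gzmb, chr10:61297586-61297885 (plus) for Prf1, chr7:43436888-43437187 (plus) for Nkg7, chr6:129623815-129624114 (minus) for Klrk1 and chr9:118477939-118478238 (plus) for Eomes.
Gzma promoter: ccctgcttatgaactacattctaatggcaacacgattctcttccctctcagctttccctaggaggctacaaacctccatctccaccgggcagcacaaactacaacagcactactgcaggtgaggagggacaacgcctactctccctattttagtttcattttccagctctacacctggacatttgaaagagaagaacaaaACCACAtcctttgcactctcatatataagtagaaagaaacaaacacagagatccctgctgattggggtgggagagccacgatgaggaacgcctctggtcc
Gzmb promoter: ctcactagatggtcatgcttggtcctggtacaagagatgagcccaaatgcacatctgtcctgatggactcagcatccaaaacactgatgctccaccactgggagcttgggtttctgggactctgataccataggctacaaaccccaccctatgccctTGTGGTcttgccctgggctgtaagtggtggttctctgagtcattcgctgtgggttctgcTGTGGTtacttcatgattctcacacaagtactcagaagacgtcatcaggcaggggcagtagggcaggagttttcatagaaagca
Prf1 promoter: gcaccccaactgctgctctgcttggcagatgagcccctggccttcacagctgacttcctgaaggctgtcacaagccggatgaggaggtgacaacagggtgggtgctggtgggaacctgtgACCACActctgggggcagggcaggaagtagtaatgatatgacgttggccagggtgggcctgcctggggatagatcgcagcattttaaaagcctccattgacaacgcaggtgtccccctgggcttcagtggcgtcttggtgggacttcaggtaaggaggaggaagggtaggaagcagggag
Nkg7 promoter: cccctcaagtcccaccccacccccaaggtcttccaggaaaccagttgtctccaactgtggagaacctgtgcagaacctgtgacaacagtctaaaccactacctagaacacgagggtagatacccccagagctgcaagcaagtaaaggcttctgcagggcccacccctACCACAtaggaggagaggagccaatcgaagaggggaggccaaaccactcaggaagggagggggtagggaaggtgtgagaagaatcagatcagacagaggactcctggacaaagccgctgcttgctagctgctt
Klrk1 promoter: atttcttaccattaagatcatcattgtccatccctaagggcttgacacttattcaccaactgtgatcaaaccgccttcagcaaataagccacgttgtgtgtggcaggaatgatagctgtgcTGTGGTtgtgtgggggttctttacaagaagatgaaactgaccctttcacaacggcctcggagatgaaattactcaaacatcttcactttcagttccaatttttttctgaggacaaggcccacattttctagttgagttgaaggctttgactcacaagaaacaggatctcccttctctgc
Eomes promoter: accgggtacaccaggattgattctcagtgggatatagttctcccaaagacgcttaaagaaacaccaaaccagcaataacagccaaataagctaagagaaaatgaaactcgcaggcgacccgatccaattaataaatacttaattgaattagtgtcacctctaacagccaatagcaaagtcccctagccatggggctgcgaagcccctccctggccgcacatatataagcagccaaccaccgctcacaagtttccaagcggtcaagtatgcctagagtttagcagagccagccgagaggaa
The Gzmb promoter holds the core at 2 places, which begin 93 and 34 bases before the start site. In the others that hold it, it begins 50 bases before the start for Gzma, 130 for Prf1, 83 for Nkg7 and 129 for Klrk1.

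Some facts of the series bear on all members. Stk38, the targeted gene, was lower in KO than in WT thymi without overlap (10.64 to 11.34 in KO thymi, 11.33 to 11.58 in HT thymi and 11.69 to 12.03 in WT thymi), but its signal did not vanish in KO, and whether its probe set lies outside the deleted part is not given. In tumors the ranges overlapped (8.73 to 13.08 in KO, 10.71 to 12.77 in HT and 11.38 to 13.04 in WT). The thymi bore out their label, since the mean of 8 markers of double-positive thymocytes was 12.66 to 12.90 in all 12. In the 19 tumors it ranged over 6.55 to 12.11, lowest in KO tumors 04 and 06. The mean of 9 measured B cell markers was highest in 4 tumors, KO 06 (12.73), KO 04 (12.44), HT 01 (12.32) and HT 03 (11.00), against 10.12 in the next tumor and 6.40 to 7.72 in the 12 thymi. In tumors the defining B cell gene Cd79a spanned 4.20 to 13.87, and Pax5 spanned 2.79 to 8.92. A measure of RNA integrity, the log2 ratio of the 3′ over the 5′ probe sets for actin and Gapdh, averaged 1.33 ± 1.17 in tumors (SD, n = 19) and 0.336 ± 0.0678 in thymi (SD, n = 12). In bulk RNA, more cells of a type and more RNA per cell cannot be told apart.

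The same 4 tumors, KO 04, KO 06, HT 01 and HT 03, held the highest signals of the 19 for Gzmb, Nkg7, Klrd1, Klrk1, Il2rb and Eomes. They did so for Ncr1 too, but its signals were below the array median on all 31 arrays. Over all 18194 genes 5.82% were higher in these 4 than in any of the 15 others. In the other 15 tumors Gzmb, Nkg7 and Klrk1 lay below the lowest thymus in 15 of 15, and Klrd1 in 14 of 15. The share of all genes that lay below the thymi in this way was not counted. Gzmb, Nkg7, Klrd1 and Klrk1 were thus highest in 2 KO and 2 HT tumors and below the thymi in nearly all others. Il2rb and Eomes differed in this. Of the 15 other tumors, Il2rb was below all thymi in 5, within in 4 and above in 6, and Eomes was below in 6, within in 8 and above in 1. Gzma ran the other way, with its lowest signals of all tumors in KO 04 and KO 06.

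**Figure D1:**
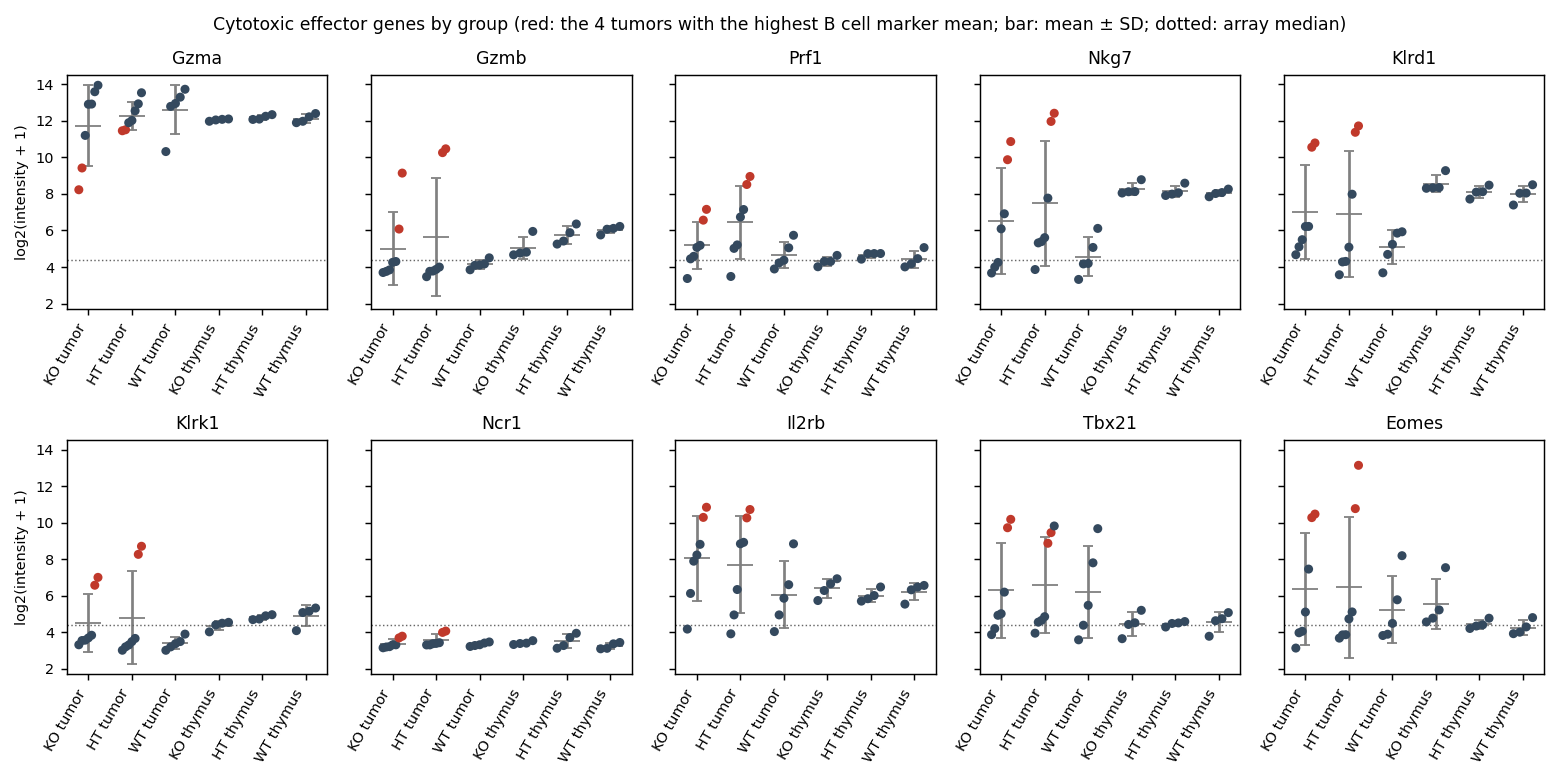
The 10 genes in the 6 groups, with log2(intensity + 1) on the vertical axis, 1 point per array, the group mean with SD as a bar, and the array median of 4.39 as a dotted line. The red points are the 4 tumors with the highest B cell marker mean, which sit at the top for Gzmb, Nkg7, Klrd1, Klrk1, Il2rb and Eomes and at the bottom of KO tumors for Gzma.

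Among the effector proteins, the gene of granzyme B, a protease that cleaves caspases, split the tumors. Gzmb was 9.14 in KO tumor 04, 6.08 in KO tumor 06, 10.26 in HT tumor 01 and 10.47 in HT tumor 03. In the other 15 tumors it spanned 3.47 to 4.50, with a median of 3.87. It was 5.95, 4.67, 4.81 and 4.76 in KO thymi, 5.88, 5.26, 6.35 and 5.42 in HT thymi, and 5.76, 6.11, 6.07 and 6.22 in WT thymi. Of these 4 tumors, 3 stood above every thymus and KO 06 stood among the thymi. All 5 WT tumors (4.17, 3.85, 4.11, 4.09 and 4.50) stood below every thymus. The lowest, median and highest values of Gzmb were 3.70, 4.25 and 9.14 in KO tumors, and 3.47, 3.87 and 10.47 in HT tumors.

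Nkg7 encodes a membrane protein of cytotoxic granules. It was 10.87 in KO tumor 04, 9.87 in KO tumor 06, 12.42 in HT tumor 01 and 11.97 in HT tumor 03. In KO tumors the lowest, median and highest values were 3.67, 6.09 and 10.87, in HT tumors 3.86, 5.61 and 12.42, and WT tumors had 6.11, 5.07, 4.17, 3.32 and 4.20. The 4 tumors were above all 12 thymi and the other 15 below all of them. The thymi lay close together, at 8.13, 8.05, 8.12 and 8.78 in KO, 8.06, 8.59, 7.99 and 7.91 in HT, and 8.08, 8.02, 7.85 and 8.26 in WT.

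Prf1, the gene of perforin, was 7.16 in KO tumor 04, 6.57 in KO tumor 06, 8.52 in HT tumor 01 and 8.96 in HT tumor 03, and spanned 3.37 to 7.15 in the other 15 tumors. HT tumors 02 (6.74) and 04 (7.15) were as high as KO 04 and KO 06, so for Prf1 the 4 did not stand apart from the rest. Of the 19 tumors, 10 were above all thymi, 3 below and 6 within the thymus range of 4.01 to 5.06. The second Prf1 probe set did not show the pattern: it read 3.36 in KO 04, 3.79 in KO 06, 3.92 in HT 01 and 3.70 in HT 03, against 3.83 to 4.84 in the thymi. On that probe set all 19 tumors stayed at or below 4.34, under the array median. The 2 probe sets therefore disagreed, and statements on Prf1 hold for the brighter of them.

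Gzma encodes granzyme A, a protease that acts independently of caspases. Its signal was far above the array median on all 31 arrays and varied little over the thymi, 11.90 to 12.40. In tumors it was spread over 8.23 to 13.95, with 11 tumors above all thymi, 7 below and 1 within. The lowest were KO tumor 04 (8.23), KO tumor 06 (9.42) and WT tumor 04 (10.32), and HT tumors 01 (11.46) and 03 (11.51) were also below all thymi. Against the thymi the 2 granzymes thus ran in opposite directions in KO tumor 04, HT tumor 01 and HT tumor 03, with Gzma below and Gzmb above. In 11 of the 15 other tumors they also ran in opposite directions, there with Gzma above all thymi and Gzmb below them.

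Among the receptors, Klrd1 and Klrk1 followed Gzmb and Nkg7. Klrd1 was 10.56 in KO tumor 04, 10.79 in KO tumor 06, 11.72 in HT tumor 01 and 11.37 in HT tumor 03. Its lowest, median and highest values were 4.67, 6.22 and 10.79 in KO tumors and 3.58, 5.08 and 11.72 in HT tumors, and WT tumors had 5.85, 4.69, 5.93, 3.68 and 5.24. Only HT tumor 07 (7.98), of the 15 others, reached the range of the thymi. Those read 8.35, 8.34, 8.31 and 9.28 in KO, 8.48, 8.10, 8.12 and 7.72 in HT, and 8.04, 8.05, 7.39 and 8.50 in WT.

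Klrk1, the gene of NKG2D, was 7.01 in KO tumor 04, 6.58 in KO tumor 06, 8.27 in HT tumor 01 and 8.71 in HT tumor 03. The other 15 tumors spanned 3.02 to 3.90, below the array median. The median was 3.69 over all 7 KO tumors and 3.49 over all 7 HT tumors, and WT tumors had 3.50, 3.02, 3.90, 3.20 and 3.38. No tumor fell inside the thymus range. The thymi had 4.50, 4.41, 4.03 and 4.55 in KO, 4.97, 4.90, 4.70 and 4.73 in HT, and 5.08, 5.16, 4.09 and 5.33 in WT, around the array median. A ratio at such low signals is less certain than one at higher signals.

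Ncr1, whose NKp46 product marks NK cells in mice, was below the array median on all 31 arrays. It read 3.69 in KO 04, 3.79 in KO 06, 3.996 in HT 01 and 4.07 in HT 03, against 3.15 to 3.47 in the other 15, and at such signals no order is drawn from these values. HT 01 and HT 03 alone exceeded the thymi, whose range was 3.10 to 3.95. The other 17 tumors lay within the range of the thymi.

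Il2rb, the beta chain that IL-2 and IL-15 share, was 10.84 in KO tumor 04, 10.29 in KO tumor 06, 10.72 in HT tumor 01 and 10.26 in HT tumor 03. It was not confined to these tumors, since 6 of the other 15 were also above all thymi, among them HT 07 (8.92), HT 05 (8.85), WT 05 (8.84) and KO 07 (8.81). In the other 15 tumors it spanned 3.92 to 8.92, against 5.54 to 6.93 in the thymi, with 5 tumors below and 4 within. The second Il2rb probe set was also highest in the 4 tumors, at 9.31, 6.53, 9.40 and 8.71 in KO 04, KO 06, HT 01 and HT 03, against at most 6.13 in the others.

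Of the transcription factors, Eomes was highest in HT tumor 03. It read 10.47 in KO tumor 04, 10.28 in KO tumor 06, 10.77 in HT tumor 01 and 13.14 in HT tumor 03. The next tumors were WT 04 (8.19) and KO 03 (7.46), and the thymi spanned 3.93 to 7.54. Among the thymi KO M_02 (7.54) stood apart, with the other 11 at 3.93 to 5.23. The second Eomes probe set gave the same 4 tumors on top, at 9.30 in KO 04, 8.01 in KO 06, 9.20 in HT 01 and 12.20 in HT 03, against at most 5.97 in the other tumors. That probe set also read KO thymus M_02 at 4.71, below KO thymus M_01 (5.03), so the high value of KO thymus M_02 was not seen on it.

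Tbx21 was high in the 4 tumors too, at 10.18 in KO 04, 9.72 in KO 06, 9.46 in HT 01 and 8.87 in HT 03. It differed from Eomes in that HT tumor 05 (9.82) and WT tumor 04 (9.67) were as high, followed by WT tumor 02 (7.80). The thymi spanned 3.65 to 5.20. Of the 19 tumors, 9 were above all thymi, 1 below and 9 within, so Tbx21 was also above the thymi in tumors whose Gzmb and Klrk1 were below them. HT tumor 05, for example, had a Gzmb of 3.87 and a Klrk1 of 3.20.

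**Figure D2:**
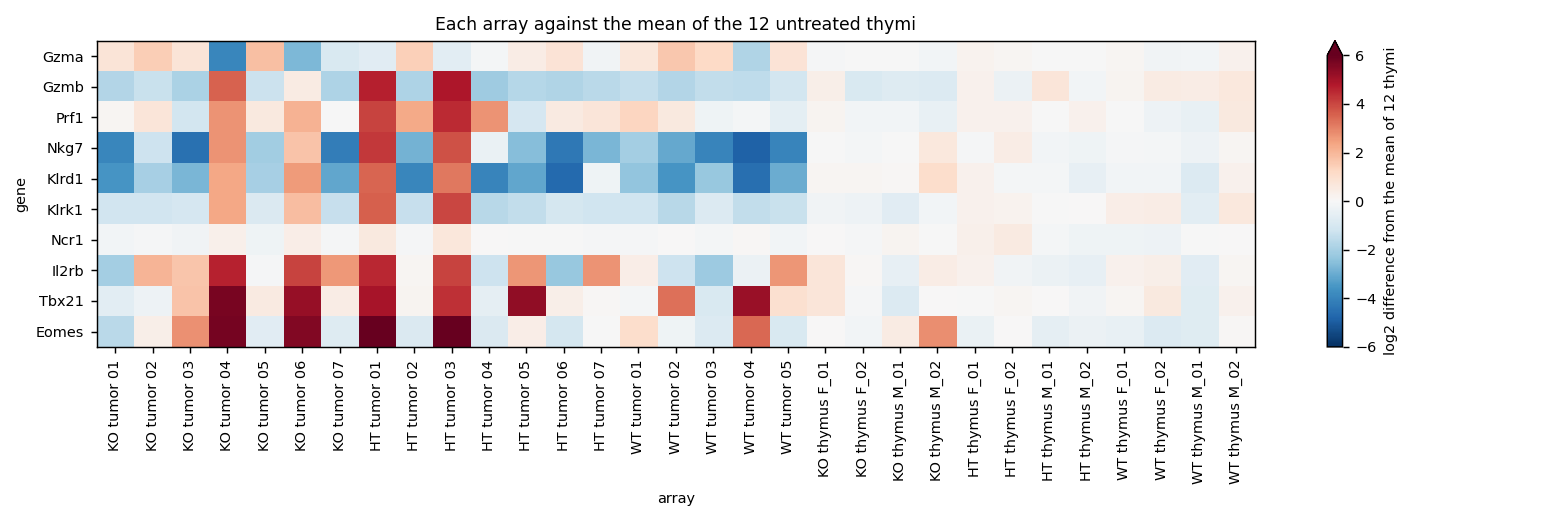
Each of the 31 arrays (columns) against the mean of the 12 thymi for the 10 genes (rows), as a colour for the log2 difference, red above and blue below. KO 04, KO 06, HT 01 and HT 03 are red for all genes but Gzma and, weakly, Ncr1, and the other tumors are blue for Gzmb, Nkg7, Klrd1 and Klrk1.

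Tumors were next set against thymi over all arrays, which asks how the program differs between ENU tumors and untreated tissue. With all 19 tumors, limma called 0 of the 9 members tested at an adjusted p under 0.05, and 2 had an unadjusted p under 0.05, as did 37.4% of all genes. Of all 13645 genes, 24.7% were called, 11.9% as higher in tumors and 12.8% as lower. The median difference over the 9 members was 0.22, against 0.05 over all genes tested. Klrd1 had the smallest adjusted p, 0.0657 by limma, with a difference of -2.19 ± 0.868 (SE) or 4.55-fold lower in tumors, and Nkg7 had a difference of -1.90 (adjusted p = 0.126). The remaining differences were 1.34 for Tbx21, 1.10 for Eomes, 1.004 for Prf1, 0.71 for Il2rb, 0.22 for Gzma, -0.77 for Klrk1 and -0.92 for Gzmb. On the second Prf1 probe set the sign was opposite, at -0.48, and there it passed (adjusted p = 0.0101 by limma, over all probe sets). Leaving out any of HT 01, HT 03, KO 04 or KO 06 brought Klrd1 past the threshold (-2.33 to -2.38, adjusted p of 0.026 to 0.0407), and no other single array changed a call. With arrays weighted by their quality in the fit, 4 members passed (Klrd1, Nkg7 and Klrk1 lower, Prf1 higher), but 47.2% of all genes did so as well.

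When the 4 tumors were left out together, 4 of the 9 members were called, all 4 lower in the 15 tumors and 0 higher. Of all genes 34.2% were called in that fit, 16.9% as higher and 17.3% as lower. Klrd1 fell by 3.01 (8.04-fold, adjusted p = 3.38e-06), Nkg7 fell by 2.78 (6.85-fold, adjusted p = 6.09e-06), Gzmb fell by 1.64 (3.12-fold, adjusted p = 3.05e-08) and Klrk1 fell by 1.35 (2.55-fold, adjusted p = 3.75e-08), each by limma. Gzma (0.58), Prf1 (0.60), Il2rb (0.20), Tbx21 (0.74) and Eomes (0.14) did not pass. The tumors left out were those with the highest values of the same genes, so the lower means and narrower spreads of the rest follow in part from that choice. The B cell marker mean moved with these 4 members over the 19 tumors, with r = 0.76 for Gzmb, 0.75 for Nkg7, 0.91 for Klrd1 and 0.81 for Klrk1. Over the 15 other tumors r was 0.21 for Gzmb, -0.04 for Nkg7, 0.67 for Klrd1 and 0.24 for Klrk1. Among these members the relation thus rested on the 4 tumors for all but Klrd1. Il2rb had r = 0.87 over the 19 tumors and 0.74 over the 15, and Eomes had 0.82 and 0.40. For Tbx21 the values were 0.62 and 0.06, for Prf1 0.49 and -0.39, for Ncr1 0.67 and -0.46, and for Gzma -0.62 and 0.02. Summed intensity over the 9 B cell markers was 66667 to 106721 in the 4 tumors, 2262 to 27431 in the 15 others and 11110 to 30559 in the thymi. The mean of 7 neutrophil markers was also highest in these 4 tumors, 7.35 to 9.06 against 3.70 to 6.40 in the 15 others, while the thymi spanned 5.16 to 8.53. Ltf, Elane and Mpo, neutrophil granule genes of that list, overlapped between the 4 and the 15. The mean of 7 fibroblast markers was lowest in the 4, 4.56 to 5.77 against 5.93 to 8.83 in the 15 others and 4.01 to 5.56 in the thymi, and Pdgfrb was the 1 gene of that list without overlap. The part of the B cell, neutrophil and fibroblast markers in the differences was not tested. KO tumor 03, with the next highest B cell mean of 10.12, had low Gzmb (3.70) and Nkg7 (3.67). The control probe ratio of the 4 tumors was 0.589 to 2.05, inside the range of the 19 tumors, 0.185 to 4.87. Over the 15 other tumors this ratio had r = 0.62 with Il2rb, 0.46 with Klrd1 and -0.59 with Gzma. With the remaining members r was between -0.26 (Klrk1) and 0.30 (Eomes). The part of RNA integrity in the relation to the B cell markers was not tested.

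**Figure D3:**
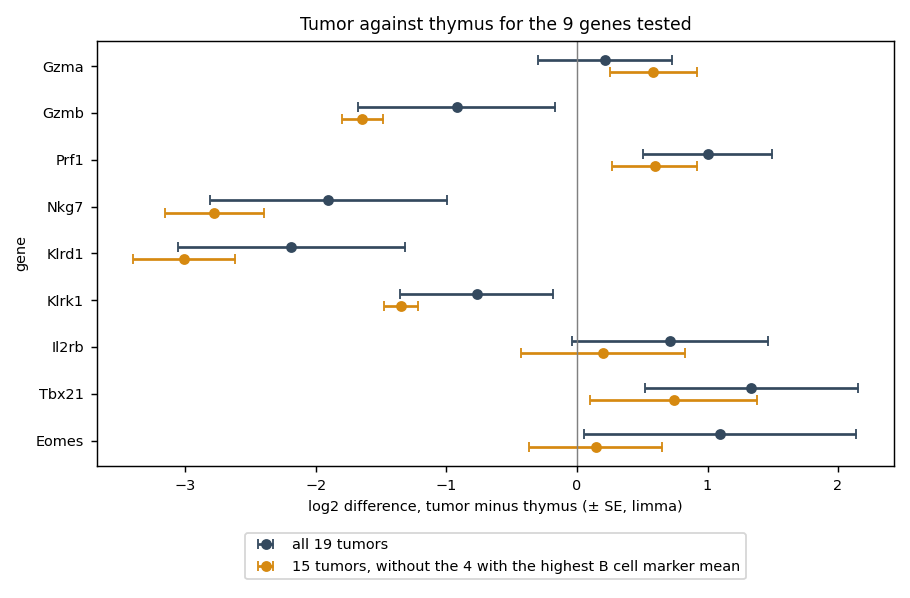
Tumor minus thymus for the 9 genes tested, as the log2 difference with its SE on the horizontal axis, with all 19 tumors in dark blue and with 15 tumors in orange. Klrd1, Nkg7, Gzmb and Klrk1 lie left of 0 in both fits and their bars narrow in the second.

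**Figure D4:**
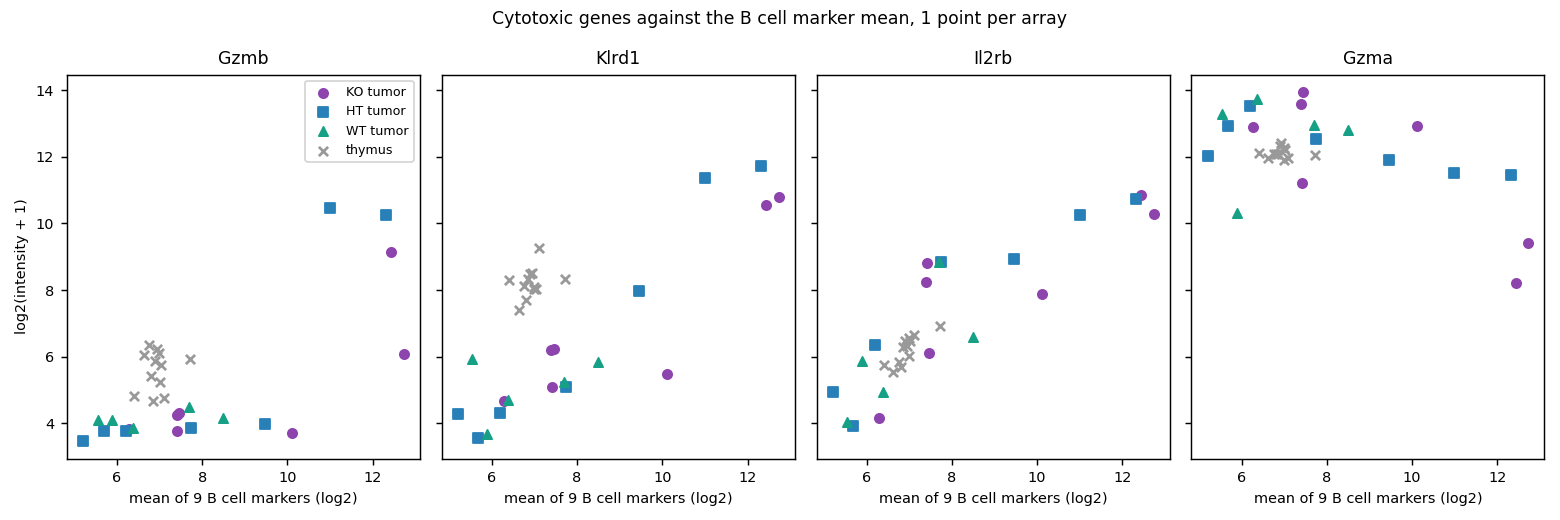
Gzmb, Klrd1, Il2rb and Gzma on the vertical axes against the mean of 9 B cell markers on the horizontal axis, both log2, 1 point per array (KO tumors purple circles, HT tumors blue squares, WT tumors green triangles, thymi grey crosses). The 4 tumors with a B cell mean of 11.00 or more hold the highest Gzmb, Klrd1 and Il2rb, and KO tumors 04 and 06 hold the lowest Gzma.

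Tumors and thymi were also compared within each genotype. With all tumors, limma called 0 of 9 members within KO, HT and WT, while 4.94%, 3.53% and 6.87% of all genes were called in those 3 comparisons. At an unadjusted p under 0.05 there were 0 members within KO, 1 within HT and 2 within WT, beside 19.8%, 15.3% and 22.1% of all genes. Klrd1 was -1.82 within KO, -1.46 within HT and -3.28 within WT, and Nkg7 was -1.69, -0.61 and -3.41 in the same order. Gzmb was -0.26 within KO, -0.29 within HT and -2.21 within WT, and Klrk1 was -0.13, -0.28 and -1.89. The WT tumors, none of which is among the 4, had the most negative value for each of the 4 genes. Without the 4 tumors, these 4 members were called as lower within each genotype and no other member was, against 11.8% of all genes called within KO, 10.1% within HT and 12.1% within WT. The tumors left out were those with the highest values of these genes, so the lower KO and HT values follow in part from that choice. No WT tumor was left out, but the spread was shared over all groups and narrowed with the removal. The calls of the genotypes are therefore not independent of each other. With array weights and all tumors, 0 members passed within KO, 2 within HT and 3 within WT, beside 18.1%, 16.3% and 31.3% of all genes. Without the 4 tumors Klrd1 was -3.03 within KO (adjusted p = 0.00255), -3.07 within HT and -2.93 within WT, and Gzmb was -1.08 within KO (adjusted p = 0.00587), -1.95 within HT and -1.90 within WT. For the difference of tumor against thymus between genotypes, limma called 0 of 9 members for KO minus WT, HT minus WT and KO minus HT (0% of all genes in each, with or without the 4 tumors). With all tumors 0 members had an unadjusted p under 0.05 in these comparisons, and the smallest was 0.171.

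Genotypes were then compared within the thymi, which asks whether loss of NDR1 alters these genes without ENU. For KO against WT, limma called 0 of 9 members, against 0.191% of all genes, and 3 had an unadjusted p under 0.05, as did 5.05% of all genes. Gzmb had a difference of -0.99 ± 0.299 (SE, adjusted p = 0.583 by limma), where 3 of 4 KO thymi were below all 4 WT thymi and KO F_01 (5.95) lay among them. Klrk1 had a difference of -0.55 (adjusted p = 0.860) and Eomes a difference of 1.27 (adjusted p = 0.845), which rested mainly on KO M_02 and was 0.62 without it. Klrd1 had a difference of 0.57 (adjusted p = 1). For HT against WT, limma called 0 of 9 members, against 0.0220% of all genes, with 0 at an unadjusted p under 0.05. For KO against HT it called 0 of 9, against 0.0586% of all genes, with 2 at an unadjusted p under 0.05, Gzmb (-0.68) and Eomes (1.09), beside 8.49% of all genes.

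Between tumor genotypes, limma called 0 of 9 members for KO against WT, HT against WT and KO against HT, and 0% of all genes in each, with 0 members at an unadjusted p under 0.05. The difference was positive for 8 of 9 members in KO against WT tumors (median 1.34, against 0.01 over all genes) and for 8 of 9 in HT against WT tumors (median 1.72, against -0.01). Gzma was the exception in both. The largest differences were Klrd1 (2.21) and Il2rb (2.21) for KO against WT, and Nkg7 (2.85), Klrd1 (2.11) and Il2rb (1.86) for HT against WT, with Gzmb at 1.76 and Prf1 at 1.72. All 4 tumors with the high signals were KO or HT, and without them the difference was positive for 4 of 9 members in KO against WT tumors (median -0.10) and for 3 of 9 in HT against WT tumors (median -0.02). For KO against HT tumors Prf1 had a difference of -1.24 (adjusted p = 0.9998 by limma), and the difference was positive for 2 of 9 members. The 2 comparisons with WT share the same WT tumors, so their signs are not independent.

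The order of the 6 groups by mean gave few steps beyond the spread. For all 10 members, each group mean lay within the larger SD of itself and the next group in the order, with 1 exception: Klrk1 in KO thymi (4.37 ± 0.236, SD, n = 4) stood above WT tumors (3.40 ± 0.334, SD, n = 5) by 0.97. Gzmb, Klrd1, Klrk1 and Nkg7 were lowest in WT tumors, with means of 4.14, 5.08, 3.40 and 4.57. Eomes, Prf1, Tbx21 and Ncr1 were highest in HT tumors, with means of 6.45, 6.44, 6.60 and 3.56, and Il2rb was highest in KO tumors, at 8.05. The SD of Gzmb in HT tumors was 3.22, against 0.234 in WT tumors and 0.494 in HT thymi.

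The members moved together across tumors to differing degrees, which is a description, since the points share the same 4 high tumors. Over the 19 tumors Gzmb and Klrk1 had r = 0.97, and Nkg7 and Klrd1 had r = 0.89. Over the 15 other tumors those values were 0.38 and 0.28, and over the 12 thymi 0.46 and 0.74. Prf1 and Nkg7 kept a positive value in the 15 other tumors, 0.66, and so did Tbx21 and Eomes, 0.59. Gzma had a negative r with each of the other 9 members over the 19 tumors, -0.39 to -0.68.

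By the same measure, the gene most like Gzmb over the 19 tumors was Ifng, the gene of interferon gamma (r = 0.99 over 19 tumors, 0.38 over the 15 others), then Nrn1 (0.99, and 0.34) and the chemokine gene Ccl3 (0.97, and 0.61). Klrk1 was most like Klrc1, which encodes the NKG2A receptor (0.98, and 0.35 over the 15 others), then Tifa and Nrn1. Nkg7 was most like Tnfrsf13b, a receptor gene of B cells (0.95, and 0.76 over the 15 others), then the granzyme gene Gzmk (0.94, and 0.57) and Igkv4-72. Klrd1 was most like Ell2 (0.97, and 0.82), then Ms4a4c and Shtn1. Prf1 was most like Nipal3 (0.92, and 0.81), then Cdk17 and Heca, and Eomes was most like Snx9 (0.95, and 0.83), then Zc3h12d and Hopx. Il2rb was most like Nlrc5, a regulator of MHC class I genes (0.95, and 0.90), then Klf2 and Il10ra, and Tbx21 was most like Lpcat4 (0.93, and 0.87), then C920009B18Rik and Ttc7. Gzma was most like Aqp11 (0.90, and 0.71), then Xrcc6 and Cops3. Ncr1, at its low signals, was most like Ly6i (0.94, and 0.36), then Nr4a3 and Crybg3.

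Related genes were read from 7 lists of the program, of which 73 genes were tested in all. In tumors against thymi limma called 17 of the 73, 10 higher and 7 lower, against 24.7% of all genes (11.9% higher and 12.8% lower). Between genotypes it called 0 of 73 in thymi and in tumors, with 8, 4 and 5 at an unadjusted p under 0.05 for thymus KO against WT, HT against WT and KO against HT, and 2, 2 and 0 in the same order for tumors. The shares of all genes at that unadjusted p were 5.05%, 6.80% and 8.49% in thymi and 3.39%, 2.80% and 1.10% in tumors.

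Of the other granzymes and cytolytic effectors, 12 of 18 were tested, with 0 higher and 1 lower: Srgn, which encodes the granule proteoglycan serglycin, at -1.41 (adjusted p = 0.0252). Over the 15 other tumors 0 were higher and 4 lower, beside 16.9% and 17.3% of all genes in that fit. Fasl was at -1.08, Srgn at -1.80, Xcl1 at -0.58 and Ccl5 at -1.95. Fasl, Srgn and Ccl5 were highest in the tumors left out, so their lower means follow in part from that choice. Of the 18 on the array, 9 were higher in all 4 tumors than in any of the 15 others (Ccl3, Ccl4, Ccl5, Cst7, Fasl, Gzmk, Gzmm, Ifng and Srgn), and 9 overlapped, among them Gzmd, Gzme, Gzmf, Gzmg, Gzmn, Tnfsf10, Ctsw and Xcl1. Over all 18194 genes 5.82% were higher in the 4 without overlap and 4.55% were lower, which is a description, as the 4 were picked from these arrays. The chemokine gene Ccl5 was 12.65 to 13.65 there and 3.92 to 9.17 in the 15 others, and the granzyme gene Gzmk was 8.48 to 11.996 there and 3.24 to 5.86 in the others. Fasl, the death ligand gene, was 6.92 to 12.17 in the 4 and 3.16 to 4.54 in the others. Ifng was 4.80 in KO 06 and 8.11 to 8.56 in the other 3, against at most 4.01 in the 15.

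Of the genes for granule loading and release, 9 of 9 were tested. Unc13d, which primes granules for release, rose by 1.08, and Vamp7, which encodes a membrane fusion protein, fell by 0.78 (adjusted p = 0.00743 and 0.0312 by limma). Over the 15 other tumors 1 was higher and 2 lower, beside 16.9% and 17.3% of all genes. Ctsc, the protease that activates granzymes, was at -0.76 and was highest in the tumors left out. Of the serpins that inhibit granzymes 3 of 4 were tested, and limma called 0, with 0 at an unadjusted p under 0.05. Serpinb6b was 0.43, Serpinb9 -0.54 and Serpinb6a -0.32.

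Of the other NK receptors and adaptors, 16 of 25 were tested, with 2 higher and 1 lower. Cd160, a receptor of NK and some T cells, rose by 2.85 (adjusted p = 6.02e-05), the Fc receptor gene Fcgr3 rose by 1.14 (adjusted p = 0.00332), and Cd247, the zeta chain of T cell and NK receptors, fell by 1.72 (adjusted p = 1.11e-05). Without the 4 tumors 2 were higher and 7 lower, beside 16.9% and 17.3% of all genes. Among the lower ones were Cd247 (-1.67), Klre1 (-0.48), Klrc1 (-0.57) and Hcst (-1.91), the adaptor of NKG2D. Klre1, Klrc1 and Hcst were highest in the tumors left out, so their lower means follow in part from that choice. Of the 19 on the array, 10 were higher in all 4 tumors than in any of the 15 others, and 9 overlapped, among them Klrc2, Klrc3, Klra1 and Klra7. Cd160 was low in the 4, at 5.81 in KO 04, 6.17 in KO 06, 7.25 in HT 01 and 7.32 in HT 03, against 6.51 to 10.13 with a median of 8.94 in the others. In the 4 tumors the Ly49 receptor gene Klra8 was 7.03 to 9.70, against 3.45 to 3.94 in the 15 others and 3.85 to 5.04 in the thymi. Klrc1 was 7.66 to 9.38 in the 4, against 3.64 to 5.20 in the others. Of the NKG2D ligands only Ulbp1 was tested, of 9 listed, and it did not pass (0.12).

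Markers of T cells stayed present in the 4 tumors. Cd3e was 11.29 to 12.15 there, against 11.80 to 13.02 in the 15 others and 12.53 to 12.96 in the thymi. Cd8a was 10.64 to 11.86, against 9.39 to 13.36 and 13.66 to 14.03 in the same order. The mean of 5 measured CD8 T cell markers was 11.17 to 12.58 in the 4, lowest in KO 06. It was 11.59 to 13.02 in the 15 others and 13.67 to 13.90 in the thymi. Of the genes of immature thymocytes, Rag1, Rag2 and Dntt split the 4 tumors. Rag1 was 4.57 in KO 04 and 8.36 in KO 06 but 12.42 in HT 01 and 12.01 in HT 03, against 10.64 to 14.37 in the 15 others. Dntt likewise was 5.12 and 8.38 in the KO tumors and 11.66 and 11.69 in the HT tumors. Rag2 was 3.70 in KO 04, 4.59 in KO 06, 7.83 in HT 01 and 8.04 in HT 03, against 4.85 to 11.21 in the 15 others. Ptcra and Arpp21 of that marker list did not split the 4 in this way. Ptcra was 3.73 in KO 04, 4.84 in KO 06, 4.92 in HT 01 and 9.10 in HT 03, against 8.54 to 12.55 in the 15 others. Arpp21 was lower in all 4, at 3.60, 6.42, 8.94 and 10.42 in the same order, than in any of the 15 others (10.51 or more). High signals of Gzmb, Nkg7, Klrd1 and Klrk1 were thus present with either level of Rag1, Rag2 and Dntt.

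Of the IL-2 and IL-15 signalling genes, 17 of 18 were tested, with 3 higher and 3 lower. The signalling inhibitor Socs1 fell by 3.24 (adjusted p = 2.08e-07) while Socs3 rose by 1.96 (adjusted p = 1.59e-06). Il15ra, the partner of Il2rb in binding IL-15, rose by 1.62, Il12rb1 rose by 1.20, and Stat5b (-0.85) and Jak1 (-0.80) fell. Leaving out the 4 tumors gave 4 higher and 6 lower, beside 16.9% and 17.3% of all genes. Il15, Cish and Il18r1, newly lower, were highest in the tumors left out, and Stat5a, newly higher, was lowest there. The calls of these genes follow in part from that choice. Of the transcription factors of the program, 15 of 16 were tested, with 4 higher and 1 lower. Tox2 rose by 4.75 (adjusted p = 6.71e-08), Nfil3, needed for NK cell development, by 2.44 (adjusted p = 1.30e-05), Runx3 by 1.70 (adjusted p = 3.04e-07) and Id2 by 1.30 (adjusted p = 0.000154), and Ets1 fell by 0.68. Without the 4 tumors 4 were higher and 3 lower, beside the same shares of all genes. Ets1 and Klf2, among the lower ones, were highest in the tumors left out, so their lower means follow in part from that choice. Tox2, Runx3, Nfil3 and Id2 passed as higher in both fits, that is also over the 15 tumors in which Gzmb, Nkg7 and Klrk1 were below the thymi, with Runx3 at 8.48 to 10.36 in tumors and 6.98 to 8.11 in thymi.

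**Figure D5:**
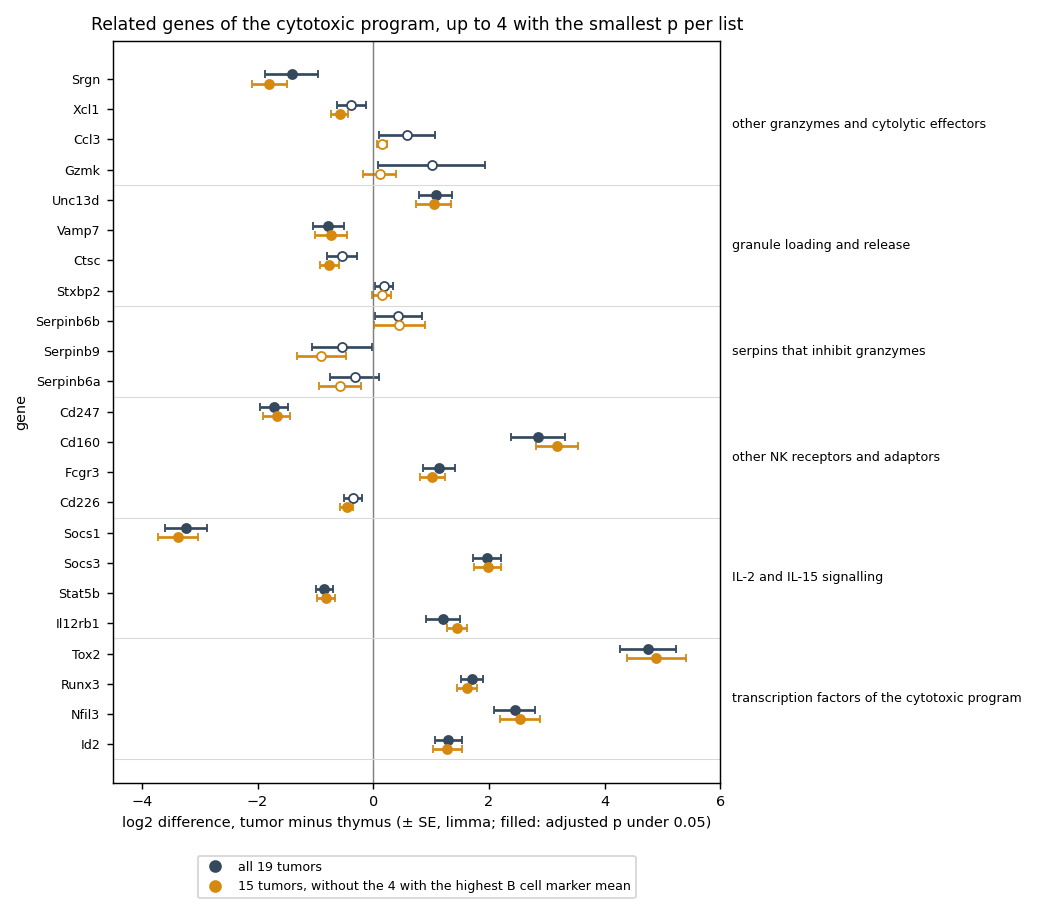
Related genes by list (rows), up to 4 per list with the smallest p, as the log2 difference of tumor minus thymus with its SE, with all 19 tumors in dark blue and 15 tumors in orange, filled where the adjusted p was under 0.05. Tox2, Runx3, Nfil3, Id2, Cd160 and Socs3 lie right of 0 in both fits, and Socs1, Cd247 and Srgn lie left of it.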

How the data were processed

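The deposited values are probe set intensities on a linear scale, normalized by the authors with GCRMA, per the submitters' processing notes, which name no version. The array held 45101 probe sets, 1 without a value, and 34957 named a single gene through GEO's platform annotation. Intensities were taken as log2(intensity + 1), the probe set of highest mean stood for each gene, and genes under the 25th percentile of means (log2 3.65) were left out, which kept 13645 of 18194. Tests used limma 3.58.1 (R 4.3.3) with sex as a covariate and Benjamini-Hochberg adjustment over all genes tested, fitted over the 12 thymi, the 19 tumors or all 31 arrays. The script was tested on simulated data with 200 changed genes. Of 465 pairs of arrays, 0 held identical values. Scanner files were not used, so signal over background is unknown, and the number of arrays limits the precision.

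All 10 members are named, with the 3 genes most like each over the tumors by Pearson's r, and up to 4 genes per related list by smallest p; Ccl5, Fasl, Klra8, Klre1, Hcst, Cd3e, Cd8a, Rag1, Dntt, Il15ra and others outside that rule were chosen after their values were seen. The members and lists were chosen with earlier results of these data known. Replicate numbers did not pair samples: same-numbered samples had correlated deviations of -0.21 to 0.12 over 12 thymus pairs and -0.58 to 0.43 over 17 tumor pairs. Alternatives were other pseudocounts, filters, probe set rules, normalization, trend, array weights, sex terms, a control probe ratio covariate, left-out arrays and a replicate block.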

Additional observations from a re-analysis of the deposited data

Results flagged for a closer look

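In 5 of 60 pairs of a gene and a group, 1 array stood far from the rest by Dixon's test, which flags about 1 in 20 groups by chance. Gzma was lowest in WT tumor 04, at 10.32 with the next WT tumor at 12.79. Gzmb was highest among KO thymi in F_01, at 5.95 with the next at 4.81. Prf1 was lowest among HT thymi in M_01, at 4.43 with the next at 4.73. KO thymus M_02 was highest of its group for Nkg7, at 8.78 with the next at 8.13, and for Klrd1, at 9.28 with the next at 8.35.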

How the results depend on the processing

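Over 13 alternatives and 31 left-out arrays, the number of members called stayed the same in 458 cases and moved in 11. Tumor against thymus gave 0 members called; it gave 4 with array weights and 4 without the 4 tumors of highest B cell markers, and 0 to 1 with single arrays left out. Within KO, HT and WT it gave 4 each without the 4 tumors, and with array weights 2 within HT and 3 within WT. Array weights also raised the share of all genes called, to 47.2% for tumor against thymus, 16.3% within HT and 31.3% within WT. Single differences kept sign and side in 1205 cases, passed newly in 28 and turned sign in 23; the cause was not tested. Klrk1 within KO (-0.13) became 0.0562 with a pseudocount of 16, 0.14 without a sex term, 0.21 in female arrays and 0.19 with the control probe ratio, and ranged over -0.50 to 0.0737 with single arrays left out. Gzmb within HT (-0.29) became 0.15, 0.46 and 0.12 with the pseudocount, female arrays and the ratio, with a range of -1.02 to 0.20. Klrk1 within HT (-0.28) became 0.15, 0.17 and 0.0453 in the same order, with a range of -0.87 to 0.0601. Gzmb within KO (-0.26) became 0.14 with the ratio. Gzma in tumor against thymus (0.22) became -0.0172 in female arrays and ranged over -0.0555 to 0.41. Without the 4 tumors Gzma in KO against WT tumors became 0.28 and Gzmb in HT against WT tumors became -0.36. With the replicate block, 0 members were called in all 6 genotype comparisons within thymi or tumors, as without it; the block could not be used for tumor against thymus, whose numbers are not shared. Low signals limit Ncr1, Klrk1 and the second Prf1 probe set, and 4 thymi a group limit the genotype comparisons.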
